A study of Arabidopsis thaliana with 9 samples.

Results

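The genes described here encode proteins of the cytosolic ribosome of Arabidopsis thaliana. They were chosen by identifier, and 52 of the 32678 genes listed in every library belong to the set, 28 for proteins of the large subunit and 24 for proteins of the small subunit. They cover 35 ribosomal proteins, and 13 of these are represented by 2 or 3 gene copies (30 genes). Polyadenylated RNA was sequenced from whole seedlings grown for 5 days in constant white light of 14.59 μmol m-2 s-1. There were 3 libraries each of csu5-1, csu5-3 and Col. All 3 genotypes are in the Col-0 ecotype. Col is the wild type. The mutants csu5-1 and csu5-3 are named for COP1 SUPPRESSOR 5, and a missense mutation in that gene is part of the series title. The labels do not say which mutant carries it, whether the lines also carry a cop1 allele, which identifier the mutated gene has, or whether a library holds pooled seedlings. The level of the mutated gene is therefore not given as a check of the labels. The labels also do not say whether the libraries came from separate cultures, so p-values measure the spread between libraries, which may be technical.

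The cytosolic ribosome is assembled from ribosomal RNAs and a large set of small proteins. The small subunit reads the messenger RNA and the large subunit joins amino acids. In Arabidopsis each ribosomal protein is encoded by a small family of gene copies, and mutants of several of these copies have pointed or narrow leaves. Growth signals that act through the TOR kinase are known to promote the synthesis of ribosomal proteins.

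The promoters of these genes share short sequences that the choice of members did not use. The telo-box (AAACCCTA) and site II elements (TGGGCC or TGGGCT) are known from promoters of plant genes for ribosomal proteins and of genes active in dividing cells. Both were searched on both strands, from 250 bases before to 50 bases after each gene's annotated start in RefSeq's TAIR10.1. Overlapping matches of 1 element were counted separately. The telo-box was found in 28 of the 52 promoters (53.8%), against 6.24% of the 31899 windows of the same length over all listed genes that the annotation holds. A site II element was found in 41 of the 52 promoters (78.8%), against 20.3% of all windows. Both were found in 22 of the 52 (42.3%), against 2.09% of all windows. In the 19199 windows of genes expressed highly enough to be tested below, the shares were 5.5% for the telo-box, 25.5% for site II and 2.39% for both. Neither was found in the windows of RPL7D (AT3G13580), RPL23aA (AT2G39460), RPS5B (AT2G37270), RPS13A (AT4G00100) or RPS16A (AT2G09990).

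The promoters of 2 families are printed because their copies differed in their change between genotypes, as given further on. In RPL12 both copies were lower in csu5-1 and to different degrees, and in RPS9 the copies went in opposite directions. Capitals mark the telo-box (AAACCCTA, or TAGGGTTT on the other strand) and site II elements (TGGGCC or TGGGCT, or GGCCCA or AGCCCA on the other strand). Positions are those of TAIR10.1, and each sequence runs 5′ to 3′ on the gene's own strand. The deposited values carry no coordinates, and genes were matched by identifier.
RPL12A (chr2:15620107-15620406, minus strand): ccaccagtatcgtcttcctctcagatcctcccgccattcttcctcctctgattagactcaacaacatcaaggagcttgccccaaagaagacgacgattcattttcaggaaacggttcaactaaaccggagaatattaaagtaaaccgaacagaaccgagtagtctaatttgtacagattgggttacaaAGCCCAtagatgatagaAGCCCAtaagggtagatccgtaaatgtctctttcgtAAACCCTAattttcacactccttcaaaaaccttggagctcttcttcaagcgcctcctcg
RPL12B (chr3:19810471-19810770, minus strand): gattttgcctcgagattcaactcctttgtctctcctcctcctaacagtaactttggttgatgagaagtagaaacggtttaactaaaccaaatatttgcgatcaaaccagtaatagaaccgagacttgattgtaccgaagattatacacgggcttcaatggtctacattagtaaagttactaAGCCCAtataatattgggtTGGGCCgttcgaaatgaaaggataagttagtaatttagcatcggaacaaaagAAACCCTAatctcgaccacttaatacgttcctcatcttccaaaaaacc
RPS9B (chr5:4936380-4936679, minus strand): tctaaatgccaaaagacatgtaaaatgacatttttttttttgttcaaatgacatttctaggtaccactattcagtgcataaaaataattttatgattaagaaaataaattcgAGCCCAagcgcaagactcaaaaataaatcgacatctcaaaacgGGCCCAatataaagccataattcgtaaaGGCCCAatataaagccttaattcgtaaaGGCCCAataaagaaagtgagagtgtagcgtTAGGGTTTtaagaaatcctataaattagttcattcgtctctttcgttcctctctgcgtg
RPS9C (chr5:15949660-15949959, plus strand): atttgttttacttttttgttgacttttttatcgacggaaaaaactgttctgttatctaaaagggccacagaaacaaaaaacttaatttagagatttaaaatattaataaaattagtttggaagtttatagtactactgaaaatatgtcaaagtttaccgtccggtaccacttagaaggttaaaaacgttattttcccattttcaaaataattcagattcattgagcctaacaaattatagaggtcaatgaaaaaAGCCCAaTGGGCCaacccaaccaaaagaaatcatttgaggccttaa
The RPL12A window holds 1 telo-box and 2 site II elements, and the RPL12B window holds 1 and 2. The RPS9B window holds 1 telo-box and 4 site II elements. In the RPS9C window there are 2 site II elements and no telo-box. These matches describe the letters only.

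The deposited values carry no unit and were read as FPKM, in which a gene's reads are divided by its length and by the depth of the library, because low values of short genes are whole multiples of a step that scales with exon length. The smallest steps between low values put the depth at 37.0 to 42.9 M reads per library. At least 188 reads then stood behind every value of the 51 members measured, as an approximation from exon lengths. Replicates differed by more than counting noise, so no library was counted as a repeat of another. The factors by which values were divided were 0.960 to 0.968 in csu5-1, 1.01 to 1.03 in csu5-3 and 1.02 in Col. All genes were tested together with limma, on log2 of the scaled FPKM plus 0.5, in 1 model over the 9 libraries. A gene was tested where at least 3 libraries reached 1 FPKM, which 19329 genes did. A gene is said to have fallen or risen where the p-value adjusted by Benjamini-Hochberg over all tested genes was below 0.01 and the fold was above 1.5, the thresholds in the series' design text. Differences are given as log2 folds of these values, each with its standard error, which understates changes of genes near 0.

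Of the 52 members, 51 were tested, and each of them had at least 5.74 FPKM in every library. RPS27aB (AT2G47110) is listed at 0 in all 9 libraries and was not tested. It is also known as UBQ6, and like its other copies it encodes ubiquitin fused to a ribosomal protein. Another annotated gene overlaps it, so its reads may have been left out in counting. The mean level in Col ranged up to 610 FPKM, for RPS8A (AT5G20290), and the median over the 51 members was 227 FPKM. RPS27aA (AT1G23410), RPS9C (AT5G39850) and RPL10B (AT1G26910) had Col means below 20 FPKM, and every other tested member was above 54 FPKM. Another annotated gene overlaps RPL9B, RPL9C, RPL24A, RPP0B, RPS13A, RPS15A, RPS18C, RPSaA and RPS27aA, so their values may include or lack shared reads.

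The members together were lower in csu5-1 than in Col, with csu5-3 between them. Their summed level was 7647 to 8462 FPKM in the csu5-1 libraries, 10223 to 10693 FPKM in the csu5-3 libraries and 11524 to 11840 FPKM in the Col libraries. These sums made up 1.09% to 1.19% of all FPKM in csu5-1, 1.47% to 1.55% in csu5-3 and 1.61% to 1.65% in Col, and no library of a genotype reached the range of another. Both subunits showed this order. The large subunit members summed to 4171 to 4632 FPKM in csu5-1, 5601 to 5923 FPKM in csu5-3 and 6327 to 6440 FPKM in Col. The small subunit members summed to 3476 to 3831 FPKM in csu5-1, 4622 to 4817 FPKM in csu5-3 and 5166 to 5400 FPKM in Col. In RNA from whole seedlings, fewer cells with a high level and less of these RNAs per cell cannot be told apart.

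In csu5-1 against Col, 11 of the 51 members fell and none rose. Over all tested genes 7.86% fell and 8.31% rose (1519 and 1606 genes, or 1962 and 1313 without scaling). At an adjusted p below 0.01 with any fold, 49 of the 51 members were lower in csu5-1, against 18.5% of all tested genes. In 50 of the 51 every csu5-1 library lay below every Col library in scaled values, which held for 28.9% of all tested genes. The exception was RPS9C. At an unadjusted limma p below 0.05, 50 members were lower and RPS9C was higher, against 28.5% of all tested genes lower and 27.4% higher. The median log2 fold over the members was -0.45, against -0.00 over all tested genes, and single members ranged from -0.90 to 0.55. The large subunit had 6 of 28 members that fell and a median of -0.44, and the small subunit had 5 of 23 and a median of -0.45. RPL36aB and RPS24B lay just inside the fold threshold at -0.61, while RPL28A (AT2G19730) and RPL24A (AT2G36620) at -0.58 and RPS8A at -0.56 lay just outside. The count of members that fell was 22 without scaling, 6 after quantile normalization, and 7 without Col replicate 1 or without csu5-1 replicate 2. The count of members lower at any fold was 40 to 50 under the alternatives tried.

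**Figure D1:**
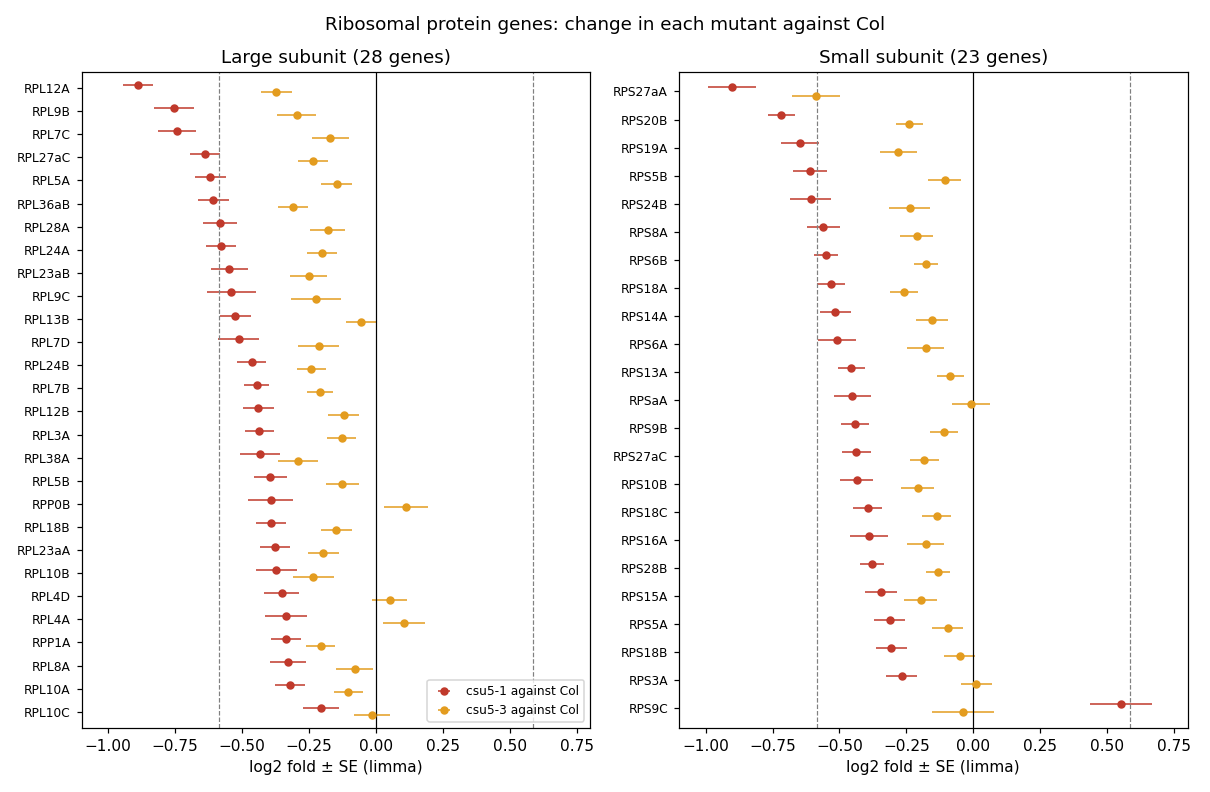
Log2 fold (limma, x axis) of the 51 tested members (y axis) in csu5-1 against Col (red) and in csu5-3 against Col (orange), with standard errors; dashed lines mark a fold of 1.5 in either direction. All members but RPS9C lie below 0 in csu5-1, from -0.90 to -0.21, and most csu5-3 points lie between those and 0.

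Among large subunit proteins, the largest drop was in RPL12A (AT2G37190). RPL12 sits at the base of the ribosomal stalk, where elongation factors dock. RPL12A had 125, 121 and 140 FPKM in csu5-1, 195, 190 and 198 FPKM in csu5-3 and 251, 251 and 253 FPKM in Col. The 3 genotypes did not overlap. The log2 fold in csu5-1 against Col was -0.89 ± 0.06, with an adjusted p of 1e-07 by limma, and RPL12A levels in csu5-1 were 0.540 of those in Col.

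RPL9B (AT1G33120) and RPL7C (AT2G44120) came next in the large subunit. RPL9B had 55.0, 55.1 and 64.5 FPKM in csu5-1, 88.3, 85.3 and 80.2 FPKM in csu5-3 and 102, 97.8 and 112 FPKM in Col, a log2 fold of -0.75 ± 0.07 in csu5-1 against Col (limma adjusted p = 4e-06). Every csu5-1 library lay below the other 6. RPL9B is nearly identical to its copy RPL9C (AT1G33140), in which mutations give the piggyback leaf phenotype, and only 46.7% and 45.6% of the 100-base windows of their exons occur in no other gene. Reads of RPL9B and RPL9C could be split between them, so their separate values are uncertain. RPL9C was lower by -0.54 ± 0.09 with an adjusted p of 4e-04 and did not pass the fold threshold. RPL7C had 52.4, 50.1 and 57.0 FPKM in csu5-1, 84.3, 76.6 and 91.2 FPKM in csu5-3 and 97.7, 90.6 and 94.8 FPKM in Col. The csu5-3 and Col libraries overlapped, and the csu5-1 libraries lay below both, with a log2 fold against Col of -0.74 ± 0.07 (limma adjusted p = 2.7e-06).

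RPL5A (AT3G25520) carries the 5S ribosomal RNA into the large subunit, and its mutants have narrow, pointed leaves. RPL5A had 204, 188 and 212 FPKM in csu5-1, 297, 283 and 305 FPKM in csu5-3 and 345, 313 and 321 FPKM in Col. The csu5-1 libraries stood apart from the other genotypes, and RPL5A fell by 0.62 ± 0.06 on the log2 scale (limma adjusted p = 3e-06). Its copy RPL5B (AT5G39740) was lower by -0.40 ± 0.06 and did not pass the fold threshold.

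RPL27aC (AT1G70600) had 237, 227 and 246 FPKM in csu5-1, 350, 329 and 317 FPKM in csu5-3 and 383, 406 and 381 FPKM in Col. RPL27aC, known from leaf-shape mutants, was lowest in csu5-1 with no overlap between genotypes, at -0.64 ± 0.06 against Col (limma adjusted p = 1.6e-06). RPL36aB (AT4G14320) had 116, 102 and 106 FPKM in csu5-1, 135, 146 and 141 FPKM in csu5-3 and 182, 176 and 165 FPKM in Col. The genotypes did not overlap in RPL36aB either, and its log2 fold in csu5-1 against Col was -0.61 ± 0.06 (limma adjusted p = 2.9e-06).

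The large subunit members that did not pass the fold threshold include proteins of the catalytic core and of the stalk. RPL3A (AT1G43170) and RPL8A (AT2G18020), which lie close to the peptidyl transferase centre, had log2 folds of -0.44 ± 0.05 and -0.33 ± 0.07 in csu5-1 against Col. RPL4A (AT3G09630) and RPL4D (AT5G02870), copies of a protein that lines the exit tunnel, had -0.34 ± 0.08 and -0.35 ± 0.06. The stalk proteins RPP0B (AT3G09200) and RPP1A (AT1G01100) had -0.39 ± 0.08 and -0.34 ± 0.06. All 6 were lower at an adjusted p below 0.01. RPL24B (AT3G53020), known as SHORT VALVE1 and needed for reinitiation of translation after upstream open reading frames, was lower by -0.46 ± 0.05 (limma adjusted p = 1.9e-05). RPL13B (AT3G49010) was at -0.53 ± 0.06, RPL18B (AT3G05590) at -0.39 ± 0.06 and RPL38A (AT2G43460) at -0.43 ± 0.07.

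The smallest differences in the large subunit were those of RPL10C (AT1G66580) and RPL10A (AT1G14320). RPL10A, known from antiviral signalling in Arabidopsis, was at -0.32 ± 0.05, and RPL10B, the low copy, at -0.37 ± 0.08. RPL10C had 106, 104 and 117 FPKM in csu5-1, 131, 123 and 142 FPKM in csu5-3 and 143, 128 and 128 FPKM in Col. The csu5-1 libraries of RPL10C lay below the others, and with a log2 fold of -0.21 ± 0.07 and an adjusted p of 0.024 it did not pass the p-value threshold.

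Among small subunit proteins, RPS27aA had the largest drop of all members. RPS27a is made as a fusion to ubiquitin, which is cut off to give both proteins. RPS27aA had 5.86, 5.74 and 6.42 FPKM in csu5-1, 8.16, 7.80 and 8.07 FPKM in csu5-3 and 13.5, 11.2 and 12.2 FPKM in Col. The 3 genotypes did not overlap. The log2 fold was -0.90 ± 0.09 in csu5-1 against Col (limma adjusted p = 4.6e-06). No source states how strand was treated in counting, so reads of RPS27aA and the gene that overlaps it may have been mixed or left out.

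RPS20B (AT3G47370) belongs to the head of the small subunit. RPS20B had 70.8, 69.0 and 72.4 FPKM in csu5-1, 108, 100 and 105 FPKM in csu5-3 and 121, 126 and 122 FPKM in Col. With no overlap between the genotypes and little spread within them, its log2 fold in csu5-1 against Col was -0.72 ± 0.05 (limma adjusted p = 1.9e-07). RPS19A (AT3G02080), also of the head, had 133, 124 and 155 FPKM in csu5-1, 179, 189 and 193 FPKM in csu5-3 and 233, 229 and 219 FPKM in Col. RPS19A fell by 0.65 ± 0.07 on the log2 scale (limma adjusted p = 9.7e-06), again with no overlap.

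RPS24B (AT5G28060) had 158, 163 and 190 FPKM in csu5-1, 239, 224 and 235 FPKM in csu5-3 and 300, 251 and 274 FPKM in Col. The log2 fold of RPS24B in csu5-1 against Col was -0.61 ± 0.08 (limma adjusted p = 3.5e-05), with no overlap between the genotypes. RPS5B had 70.1, 73.3 and 79.6 FPKM in csu5-1, 113, 104 and 118 FPKM in csu5-3 and 126, 118 and 117 FPKM in Col. In RPS5B the csu5-3 and Col libraries overlapped and csu5-1 lay below both, at -0.61 ± 0.06 against Col (limma adjusted p = 5.6e-06). Its copy RPS5A (AT3G11940), whose promoter is widely used to drive transgenes in dividing cells, was at -0.31 ± 0.06 and did not pass the fold threshold.

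**Figure D2:**
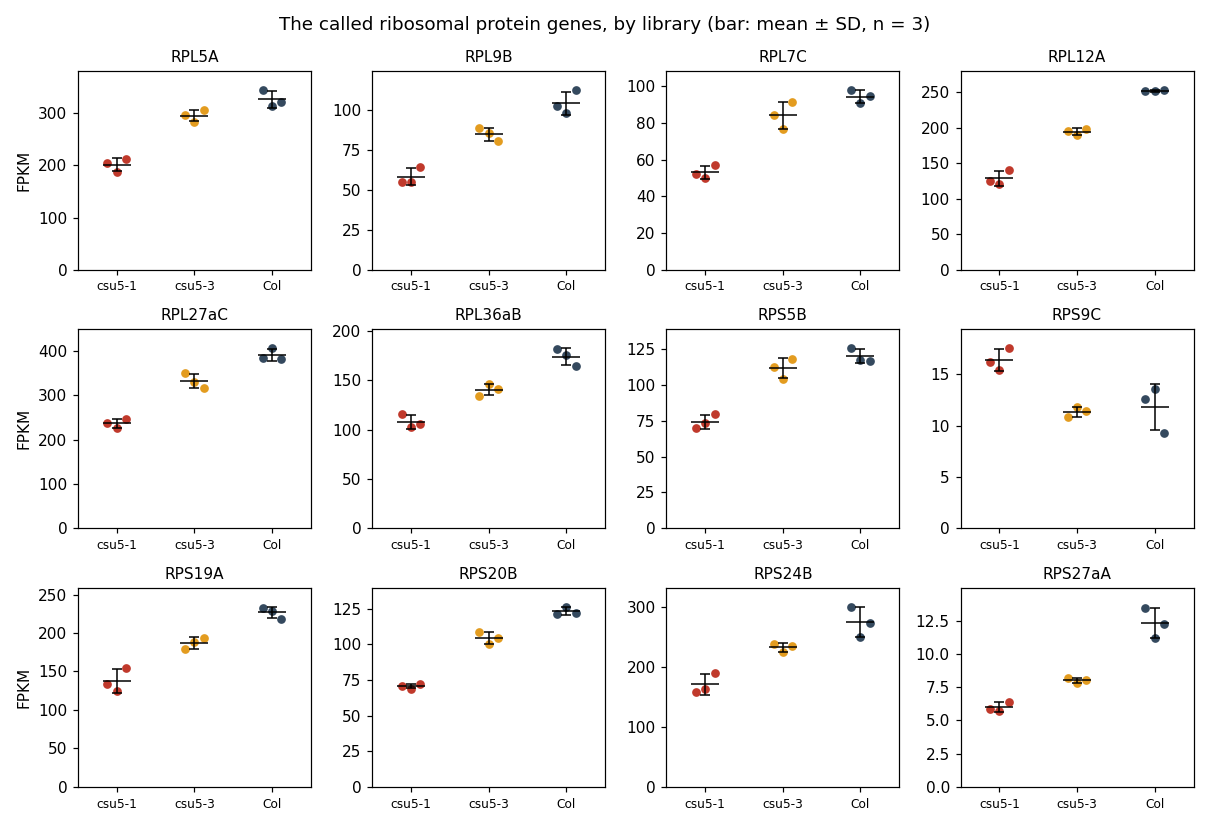
FPKM (y axes from 0) in each of the 9 libraries for the 12 members that passed both thresholds in at least 1 of the 3 comparisons; points are libraries and bars the mean ± SD (n = 3). In 11 of the panels csu5-1 lies lowest, and in RPS9C it lies highest, at 15.4 to 17.5 FPKM.

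RPS6 is phosphorylated by S6 kinase in the TOR pathway. RPS6A (AT4G31700) was at -0.51 ± 0.07 and RPS6B (AT5G10360) at -0.55 ± 0.05, a difference of 0.04 between the copies. RPS13A and RPS18A (AT1G22780), both known from pointed first leaf mutants, were at -0.46 ± 0.05 and -0.53 ± 0.05. RPS10B (AT5G41520), known from a mutant in shoot branching, was at -0.44 ± 0.06. RPS3A (AT2G31610), near the entry of the messenger RNA channel, had the smallest negative value of the small subunit at -0.27 ± 0.06. RPSaA (AT1G72370) was at -0.45 ± 0.07 and RPS28B (AT5G03850) at -0.38 ± 0.05. RPS14A (AT2G36160) was at -0.52 ± 0.06, RPS15A (AT1G04270) at -0.35 ± 0.06 and RPS16A at -0.39 ± 0.07. All 11 had adjusted p-values below 0.01 and none passed the fold threshold.

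The copies of a family did not always share their change. The spread between the highest and lowest copy in csu5-1 against Col was largest in RPS9, at 0.99 on the log2 scale, followed by RPS27a at 0.46, RPL12 at 0.45 and RPL7 at 0.30. It was 0.02 in RPL4. Each copy's share of its family's summed FPKM needs no scaling between libraries. It was compared by an exact two-sided permutation test over 3 against 3 libraries, in which the smallest possible p is 0.1. After adjustment over the 87 such comparisons no p was below 0.193. Because no p can be below 0.1 with 3 against 3 libraries, this test cannot decide whether a share differed.

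In RPS9, a protein at the entry of the messenger RNA channel, the main copy was lower and the minor copy higher. RPS9B (AT5G15200) had 301, 314 and 334 FPKM in csu5-1, 429, 411 and 424 FPKM in csu5-3 and 468, 439 and 454 FPKM in Col, a log2 fold of -0.44 ± 0.05 in csu5-1 against Col (limma adjusted p = 2e-05). RPS9C had 16.2, 15.4 and 17.5 FPKM in csu5-1, 10.8, 11.8 and 11.4 FPKM in csu5-3 and 12.6, 13.6 and 9.27 FPKM in Col. All csu5-1 libraries of RPS9C lay above the other 6. Its log2 fold in csu5-1 against Col was 0.55 ± 0.12 (limma adjusted p = 0.0017), under the fold threshold. RPS9C passed the threshold without Col replicate 1, without Col replicate 2 or without csu5-1 replicate 2, at 0.60 to 0.66. Its share of RPS9 was 4.93% ± 0.22 in csu5-1, 2.62% ± 0.17 in csu5-3 and 2.54% ± 0.50 in Col (SD, n = 3 each). The difference of 2.39 percentage points in csu5-1 against Col had an exact permutation p of 0.1.

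In RPS27a only 2 of the 3 copies had values above 0, and shares rest on those 2, without RPS27aB. The main copy of the 2 is RPS27aC (AT3G62250), with 254, 265 and 279 FPKM in csu5-1, 345, 327 and 335 FPKM in csu5-3 and 399, 371 and 371 FPKM in Col. RPS27aC was lower by -0.44 ± 0.05 in csu5-1 against Col (limma adjusted p = 2.3e-05). The share of RPS27aA was 2.21% ± 0.07 in csu5-1, 2.33% ± 0.02 in csu5-3 and 3.13% ± 0.18 in Col (SD, n = 3 each). Neither mutant overlapped Col in this share (exact permutation p = 0.1 for each).

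RPL12A and RPL12B (AT3G53430) had similar levels in Col and different ones in csu5-1. RPL12B had 159, 160 and 175 FPKM in csu5-1, 232, 205 and 216 FPKM in csu5-3 and 239, 237 and 233 FPKM in Col, a log2 fold of -0.44 ± 0.06 in csu5-1 against Col (limma adjusted p = 5.1e-05). The share of RPL12A in the sum of both was 43.8% ± 0.77 in csu5-1, 47.2% ± 1.31 in csu5-3 and 51.6% ± 0.42 in Col (SD, n = 3 each). No genotype overlapped another in this share, each pair at the smallest exact permutation p of 0.1. With all listed copies of RPL12 in the sum, the difference in the RPL12A share was -5.71 percentage points in csu5-1 against Col, in place of -7.77, and -1.98 in csu5-1 against csu5-3, in place of -3.40. The third copy, RPL12C (AT5G60670), is not among the 52 and averaged 50.9 ± 3.48 FPKM in csu5-1, 83.0 ± 5.14 FPKM in csu5-3 and 96.7 ± 8.17 FPKM in Col (SD, n = 3 each). Like RPL12A it fell, at -0.84 ± 0.07 in csu5-1 against Col (limma adjusted p = 1.6e-06).

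In RPL7 the main copy RPL7B (AT2G01250) had 172, 169 and 174 FPKM in csu5-1, 219, 205 and 220 FPKM in csu5-3 and 248, 241 and 254 FPKM in Col, at -0.45 ± 0.05 in csu5-1 against Col (limma adjusted p = 8e-06). RPL7D had 33.3, 35.0 and 39.7 FPKM in csu5-1, 44.7, 44.3 and 51.8 FPKM in csu5-3 and 53.1, 52.9 and 57.1 FPKM in Col, at -0.51 ± 0.08 (limma adjusted p = 0.00014). The genotypes did not overlap in either copy. The share of RPL7C was 20.3% ± 0.67 in csu5-1, 24.3% ± 0.83 in csu5-3 and 23.8% ± 0.61 in Col (SD, n = 3 each), lowest in csu5-1 (exact permutation p = 0.1 against each of the others). RPL7A (AT1G80750), a copy outside the 52, averaged 24.9 ± 1.88 FPKM in csu5-1, 42.7 ± 3.37 FPKM in csu5-3 and 46.2 ± 3.60 FPKM in Col, and fell by 0.80 ± 0.08 on the log2 scale in csu5-1 against Col (limma adjusted p = 4e-06).

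**Figure D3:**
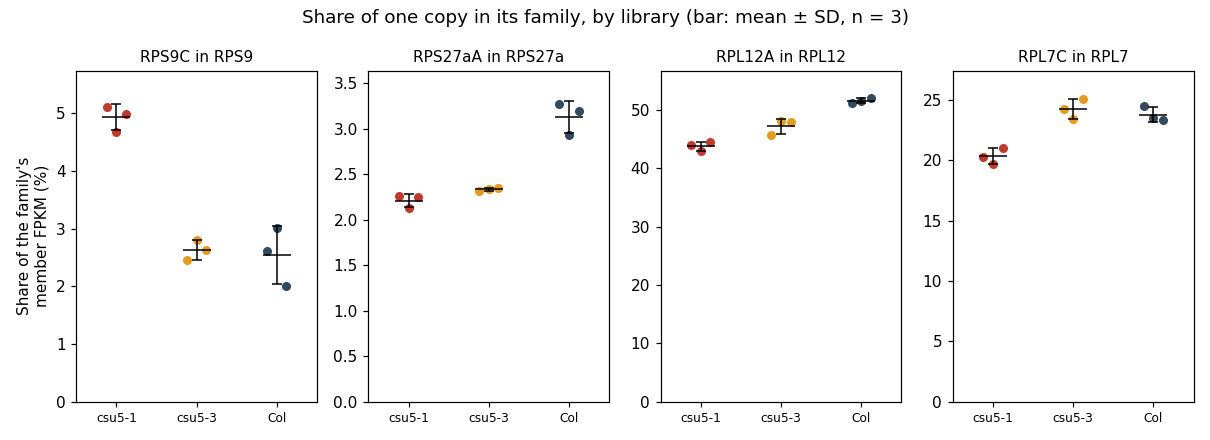
Share (percent, y axes from 0) of 1 gene copy in the summed FPKM of its family's members, in each of the 9 libraries, for RPS9C, RPS27aA, RPL12A and RPL7C; points are libraries and bars the mean ± SD (n = 3). RPS9C has its highest share in csu5-1 (4.93%), while the other 3 copies have their lowest share there.

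The remaining families differed less between copies. RPS18A was at -0.53 in csu5-1 against Col, RPS18C (AT4G09800) at -0.39 and RPS18B (AT1G34030) at -0.31, a spread of 0.22. RPL23aB (AT3G55280) was at -0.55 and RPL23aA at -0.38; this protein lies at the mouth of the exit tunnel. RPL24A was at -0.58, 0.11 from RPL24B. Across the 51 members the fold in csu5-1 against Col had a Spearman correlation of 0.14 with the mean FPKM and of 0.17 with exon length, as a description over genes that share the same libraries.

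In csu5-3 against Col, the members were lower by less. RPS27aA fell, at -0.59 ± 0.09 (limma adjusted p = 0.0063), and no member rose, where 0.129% of all tested genes fell and 0.119% rose. RPS27aA was not called without Col replicate 1, 2 or 3, without csu5-3 replicate 1, 2 or 3, or without csu5-1 replicate 1, and the count of members that fell was then 0. At any fold RPL12A, at -0.37 ± 0.06 (limma adjusted p = 0.0063), and RPS27aA were lower, against 0.352% of all tested genes; this count too was 0 when any of those libraries was left out. At an unadjusted limma p below 0.05, 34 members were lower and 0 higher, against 12.2% of all tested genes lower and 9.78% higher. In 33 of the 51 members every csu5-3 library lay below every Col library in scaled values, against 13.5% of all tested genes. Overlaps given for single genes are those of unscaled FPKM, in which RPL7C overlapped Col and RPL12B did not. In scaled values it was the reverse for both. The median log2 fold over the members was -0.18, against -0.00 over all genes, and 47 of the 51 values were below 0. The 4 above 0 were RPP0B at 0.11 ± 0.08, RPL4A at 0.10 ± 0.08, RPL4D at 0.05 ± 0.06 and RPS3A at 0.01 ± 0.06, and their adjusted p-values by limma were 0.47 or more. The comparisons of csu5-1 and of csu5-3 with Col share the Col libraries, so their values for the same gene are not independent.

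In csu5-1 against csu5-3, no member fell and RPS9C rose, at 0.59 ± 0.12 (limma adjusted p = 0.0012), where 6.59% of all tested genes fell and 8.12% rose (1273 and 1569 genes, or 1689 and 1300 without scaling). RPS9C had a fold of 1.51, next to the threshold, and was not called without csu5-1 replicate 3 or without csu5-3 replicate 1. At an adjusted p below 0.01 with any fold, 41 of the 51 members were lower in csu5-1 than in csu5-3, against 16.4% of all tested genes, and at an unadjusted p below 0.05 there were 48, against 26.9% of all tested genes. The median log2 fold over the members was -0.31, against -0.01 over all genes. RPL7C had the lowest value at -0.57 ± 0.07 (limma adjusted p = 2.8e-05), followed by RPL12A at -0.52 ± 0.06 and RPP0B at -0.51 ± 0.08. RPP0B, RPL4A at -0.44 ± 0.08 and RPL4D at -0.40 ± 0.06 were lower in csu5-1 than in csu5-3 although their csu5-3 libraries overlapped Col.

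Other genes of the ribosome and of translation were described by fixed lists. Over all tested genes, 7.86% fell and 8.31% rose in csu5-1 against Col, and 6.59% fell in csu5-1 against csu5-3. At an unadjusted limma p below 0.05, 27.4% were higher in csu5-1 against Col. In csu5-3 against Col 12.2% were lower and 9.78% higher at that p, while 0.129% fell and 0.119% rose. Of 158 tested copies of cytosolic ribosomal protein genes outside the 52, 42 fell and none rose in csu5-1 against Col, with a median log2 fold of -0.50 and none higher at an unadjusted p below 0.05. RPL14A (AT2G20450) averaged 49.5 ± 1.40 FPKM in csu5-1, 89.2 ± 2.68 FPKM in csu5-3 and 101 ± 5.34 FPKM in Col (SD, n = 3 each), and fell by 0.94 ± 0.05 on the log2 scale in csu5-1 against Col (limma adjusted p = 3.7e-08). RPL6B (AT1G74060) fell by 0.79 ± 0.05 (limma adjusted p = 7.8e-08). In csu5-3 against Col limma called none of the 158, with 100 lower and 0 higher at an unadjusted p below 0.05. Of 34 genes for ribosome biogenesis 15 fell and none rose in csu5-1 against Col, with a median of -0.55 and none higher at an unadjusted limma p below 0.05. RLP24 (AT2G44860), a factor of large subunit assembly, and BRX1-2 (AT1G52930), a processing factor of the large subunit RNA, each fell by 0.89. In csu5-1 against csu5-3, 16 of the 34 fell, among them BOP1 (AT2G40360) at -1.02 ± 0.07 and the nucleolar GTPase NSN1 (AT3G07050) at -0.90 ± 0.06. In csu5-3 against Col the biogenesis genes had a median of -0.00, and limma called none of them, with 2 higher and 3 lower at an unadjusted p below 0.05.

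Plastid ribosomes are built from a separate set of proteins. Of 37 nuclear genes for them, 3 fell in csu5-1 against Col: PSRP3 (AT1G68590) at -0.86 ± 0.06, PRPL12C (AT3G27850) at -0.73 ± 0.06 and PRPL19A (AT4G17560) at -0.82 ± 0.07, the last of which was named after its value was seen. As a share, these 3 of 37 are near the 7.86% of all tested genes that fell. At an adjusted limma p below 0.01 with any fold, 18 of the 37 were lower and 0 higher. Over all tested genes 18.5% were lower by that rule. At an unadjusted p below 0.05, 26 of the 37 were lower and 0 higher, against 28.5% of all tested genes lower and 27.4% higher. The median of the plastid list was -0.20 in csu5-1 against Col and -0.22 in csu5-3 against Col. In csu5-3 against Col, 30 of the 37 were lower and 0 higher at an unadjusted limma p below 0.05. Over all tested genes 12.2% were lower and 9.78% higher there. Of 36 translation factors 3 fell and 1 rose in csu5-1 against Col, with a median of -0.23. Those that fell are again near the 7.86% of all tested genes, and 8.31% of all tested genes rose. At an adjusted limma p below 0.01 with any fold, 21 of the 36 were lower and 2 higher, against 18.5% of all tested genes lower. At an unadjusted p below 0.05, 25 of the 36 were lower and 5 higher, against 28.5% of all tested genes lower and 27.4% higher. EEF1BA2 (AT5G19510), a subunit of the nucleotide exchange factor of elongation factor 1, fell by 0.85 ± 0.06 and EIF3E (AT3G57290) by 0.59 ± 0.05; EIF5A1 (AT1G13950), which fell by 0.62 ± 0.13, and EEF2L (AT3G12915), which rose by 0.69 ± 0.13, were named after their values were seen.

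Neither the 9 genes of the TOR pathway nor the 5 polyubiquitin genes held a gene that passed both thresholds in csu5-1 against Col by limma. The S6 kinase gene S6K1 (AT3G08730) was at 0.46 ± 0.06 and YAK1 (AT5G35980) at 0.33 ± 0.06. At an unadjusted limma p below 0.05, 5 TOR pathway genes were higher and 0 lower, against 27.4% of all tested genes higher and 28.5% lower. UBQ11 (AT4G05050) was at 0.54 ± 0.05 and UBQ14 (AT4G02890) at 0.53 ± 0.05, and at an unadjusted p below 0.05 there were 4 polyubiquitin genes higher and 1 lower. The polyubiquitin median of 0.39 stood on the other side of 0 from the ubiquitin fusion genes RPS27aA and RPS27aC. UBQ3 (AT5G03240), with the highest mean level of the 5, was lower, at 741 ± 46.7 FPKM in csu5-1 and 901 ± 49.9 FPKM in Col (SD, n = 3 each). The 5 genes summed to 2269 to 2356 FPKM in csu5-1, 2279 to 2355 FPKM in csu5-3 and 2081 to 2179 FPKM in Col.

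**Figure D4:**
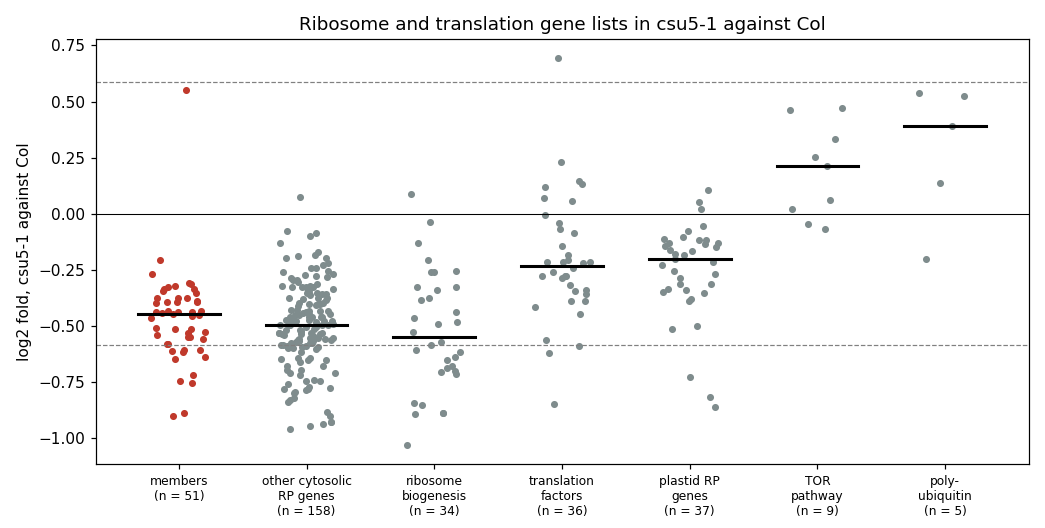
Log2 fold in csu5-1 against Col (y axis) of each tested gene of the members and 6 other lists, with the median of each list as a black bar; dashed lines mark a fold of 1.5. The members' median of -0.45 lies near those of the other cytosolic ribosomal protein genes (-0.50) and of ribosome biogenesis (-0.55), and that of the plastid list is -0.20.

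Markers of other tissues also differed in csu5-1 against Col, where 7.86% of all tested genes fell and 8.31% rose. At an unadjusted limma p below 0.05, 28.5% of all tested genes were lower there and 27.4% higher. In csu5-3 against Col none of the root markers or genes of dividing cells was called. There 0.129% of all tested genes fell and 0.119% rose. At an unadjusted p below 0.05, 1 root marker was higher and 2 lower, and 4 genes of dividing cells were higher and 1 lower. Over all tested genes 9.78% were higher and 12.2% lower in csu5-3. Of 11 tested root markers 4 fell and 1 rose in csu5-1 against Col, and at an unadjusted p below 0.05 there were 6 lower and 3 higher: the root hair genes PRP3 (AT3G62680), PRP1 (AT1G54970), EXPA18 (AT1G62980) and EXPA7 (AT1G12560) fell by 0.70 to 1.76 on the log2 scale and SHR (AT4G37650) rose by 0.62; PRP1, EXPA18 and EXPA7 were named after their values were seen. The 13 listed root markers summed to 237 to 245 FPKM in csu5-1, 223 to 244 FPKM in csu5-3 and 242 to 247 FPKM in Col, and NRT2.1 was listed at 0 in 1 csu5-1 library. This sum joins markers that went in both directions. CASP1 (AT2G36100) alone averaged 91.4 ± 8.03 FPKM in csu5-1 and 71.8 ± 6.58 FPKM in Col (SD, n = 3 each). In csu5-3 CASP1 averaged 62.5 ± 6.94 FPKM. PRP3 averaged 6.74 ± 0.89 FPKM in csu5-1 and 20.3 ± 2.63 FPKM in Col. Of 17 tested genes of dividing cells 2 fell and 1 rose in csu5-1 against Col. The median log2 fold of this list was 0.21, with 13 of the 17 above 0, and at an unadjusted p below 0.05 there were 10 higher and 2 lower. The ribonucleotide reductase subunit TSO2 (AT3G27060) fell by 0.69 ± 0.09 and GIF1 (AT5G28640), a growth coactivator, by 0.65 ± 0.10; GRF5 (AT3G13960), which rose by 0.60 ± 0.16, was named after its value was seen. The 20 listed genes of dividing cells summed to 218 to 247 FPKM in csu5-1, 267 to 279 FPKM in csu5-3 and 242 to 256 FPKM in Col, with WUS at 0 in all csu5-1 libraries. TSO2 alone averaged 43.5 ± 5.60 FPKM in csu5-1, 98.0 ± 9.39 FPKM in csu5-3 and 74.4 ± 3.72 FPKM in Col (SD, n = 3 each), so its difference between csu5-1 and Col is larger than that of the summed means. Genes encoded in the chloroplast summed to 389 to 470 FPKM in csu5-1, 557 to 807 FPKM in csu5-3 and 669 to 809 FPKM in Col, in libraries made from polyadenylated RNA. The part of these differences in the levels of the ribosomal protein genes was not tested.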

How the data were processed

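The authors deposited 1 table per library, whose values were read as FPKM from their steps and sums; RPKM cannot be told apart from them. Per the submitters' processing notes and the labels, Trimmomatic served for trimming, HISAT2 (version 2.05) for alignment to TAIR10 and HTSeq for counting. How the deposited FPKM were made, and any use of strand, are not given in the sources used here. All values shown were computed from those FPKM.

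The design preferred a count test; because the files hold FPKM, limma 3.58.1 (R 4.3.3) with a mean-variance trend was used on log2(FPKM + 0.5). Each library was scaled to the average library by its mean log ratio after 0.3 of the genes were trimmed off each end. Genes reaching 1 FPKM in 3 or more libraries were kept. A joint model covered the 9 libraries and 3 genotypes. The test was first run on simulated data. Depth came from low values within 0.1 of whole reads (72.5% to 82.1% of 102 to 137 values per library, against 12.8% to 16.5% at other depths), and is approximate. Copy shares were tested with exact permutation tests. Names, exon lengths, overlaps and promoters came from RefSeq's TAIR10.1, which matched 31912 identifiers and gives a symbol for 26 of the 52 members; the copy letters of the others follow the usual nomenclature of Arabidopsis ribosomal proteins. In 50 members at least 90% of the 100-base exon windows occur in no other gene, and 10 members overlap another annotated gene.

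The members and lists were chosen with earlier results of these data known. Genes given in every library were members called in any comparison and all copies of the 4 families with the largest spread in csu5-1 against Col. From other lists the 2 called genes with the smallest adjusted p per comparison were named, or the 2 smallest where none was called, and copies of the families described. Alternatives were pseudocounts of 0.1 and 1, a filter of 5 FPKM or none, median, quantile or no scaling, scaling without ribosomal protein genes, no trend, fits of 2 genotypes, a replicate block, and leaving out each library. For shares, all listed copies and values multiplied by exon length were used. Restricting the members to those with no overlapping gene and 90% unique windows was added after seeing the data.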

Additional observations from a re-analysis of the deposited data

How the results depend on the processing

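No value that passed a threshold changed sign. With 1 library left out, values that had not passed crossed 0: RPS9C in csu5-3 against Col (-0.20 to 0.07 over all alternatives), its share there (-0.18 to 0.32 percentage points), the RPL7B share in csu5-3 against Col (-0.74 to 0.42), and the RPL7D share in csu5-1 against Col (-0.38 to 0.49), csu5-3 against Col (-0.49 to 0.21) and csu5-1 against csu5-3 (-0.24 to 0.63). Of the other shares, with all listed copies RPL7C differed by -2.74 points in csu5-1 against Col and -3.04 in csu5-1 against csu5-3, and with values multiplied by exon length RPS9C differed by 1.86 and 1.80. In csu5-1 against Col, the members that fell numbered 22 without scaling, 6 after quantile normalization and 7 to 16 when 1 library was left out, and those that rose 0 to 1; the replicate block left 11. The median over the members was -0.53 without scaling and -0.38 after quantile normalization. RPL12A, RPL9B, RPL7C, RPS20B and RPS27aA passed both thresholds under each alternative, while RPL5A, RPL27aC, RPL36aB, RPS5B, RPS19A and RPS24B did not in 1 to 4 of 20. In csu5-3 against Col, the members that fell numbered 0 with a pseudocount of 1, with a filter of 5 FPKM, with no filter, with only the 2 genotypes, with no trend and among the 42 members with unique windows and no overlap, and 0 to 1 when 1 library was left out. Those lower at any fold numbered 0 with no filter or no trend, 1 after quantile normalization, with only the 2 genotypes or among the 42, and 0 to 2 when 1 library was left out. In csu5-1 against csu5-3, the members that fell numbered 1 with no filter, 3 without scaling, 1 after quantile normalization and 0 to 1 when 1 library was left out. Those that rose numbered 0 with a pseudocount of 1, with no filter, without scaling, after quantile normalization, and 0 to 1 when 1 library was left out. Those lower at any fold numbered 26 with no trend. The cause of these shifts was not tested. Replicate numbers were not taken as pairs in the main model. Deviations of same-numbered libraries correlated at 0.02 to 0.15 over 9 pairs, and those of differently numbered libraries at -0.14 to 0.03 over 18 pairs. Not every library correlated best with its own number. With the replicate block, 34 of all tested genes rose and 43 fell in csu5-3 against Col, in place of 23 and 25. The source of this difference was not tested.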
